A study of Mus musculus with 7 samples.

Results

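The respiratory chain subunits described here are 75 of the 53379 genes in the deposited count table. They were taken by gene symbol, from the prefixes of the complex I, complex III and mitochondrially encoded genes and a named set of complex II, complex IV and cytochrome c genes, and assembly factors and symbols marked as pseudogenes were left out. Of the 75, 62 lie in the nuclear genome and 13 in the mitochondrial genome. The 62 nuclear genes comprise 36 of complex I, 4 of complex II, 9 of complex III, 12 of complex IV and cytochrome c (Cycs). The 13 mitochondrial genes comprise 7 of complex I, 1 of complex III, 3 of complex IV and 2 of ATP synthase (complex V).

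RNA was measured in macrophages sorted for CD45, CD11b and F4/80, all positive, out of MC38 tumours, which grow from a mouse colon carcinoma line. The host mice were C57BL/6J on a high-fat diet, sampled 21 days after the tumour was implanted. They were 3 Gpr65-knockout mice (KO) and 4 Gpr65-wild-type mice (WT), with 1 library each. All 7 mice had the high-fat diet and carried MC38 tumours, so neither diet nor tumour was compared, and the sources used here do not say how the knockout allele was made. Gpr65 encodes a receptor that is activated by extracellular protons, and the comparison asks what its loss changes in these cells.

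The respiratory chain passes electrons from NADH through complex I, or from succinate through complex II, to ubiquinone, then through complex III and the small carrier cytochrome c to complex IV, which reduces oxygen. Complexes I, III and IV pump protons out of the mitochondrial matrix, and ATP synthase uses the returning protons to make ATP. Complexes I, III, IV and V are built from subunits of both genomes, whereas complex II is wholly nuclear, and the mitochondrial genes are read as long shared transcripts, unlike the nuclear genes, each with its own promoter. In macrophages, oxidative phosphorylation is known to be high after alternative activation and reduced after stimulation with bacterial products.

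The following promoters are shown because these 4 were the members whose promoter held both of 2 motifs. Whether the motifs bear on the levels of these members was not tested. NRF1 and the ETS factor GABPA are transcription factors known for driving nuclear genes of the respiratory chain. Each runs over 300 bases around the annotated start in RefSeq, most of them before it, on build GRCm38.p6. Capitals mark the core of the NRF1 motif (GCGCATG) and the ETS motif (CCGGAAG), searched on both strands, so that a match on the other strand is printed as CATGCGC or CTTCCGG. Cox6a1, a structural subunit of complex IV, lies at chr5:115348909-115349208 on the minus strand, with 2 overlapping NRF1 matches. Sdhb, the iron-sulphur subunit of complex II, lies at chr4:140961021-140961320 on the plus strand. Ndufb6, an accessory subunit of complex I, lies at chr4:40279372-40279671 on the minus strand. Uqcr11, a small subunit of complex III, lies at chr10:80406772-80407071 on the minus strand.
Cox6a1: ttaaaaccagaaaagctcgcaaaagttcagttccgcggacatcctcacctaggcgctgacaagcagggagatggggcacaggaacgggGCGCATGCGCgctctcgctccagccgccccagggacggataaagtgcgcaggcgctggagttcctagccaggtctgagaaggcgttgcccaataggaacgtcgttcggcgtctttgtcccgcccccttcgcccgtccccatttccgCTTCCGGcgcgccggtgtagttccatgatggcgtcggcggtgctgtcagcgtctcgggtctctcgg
Sdhb: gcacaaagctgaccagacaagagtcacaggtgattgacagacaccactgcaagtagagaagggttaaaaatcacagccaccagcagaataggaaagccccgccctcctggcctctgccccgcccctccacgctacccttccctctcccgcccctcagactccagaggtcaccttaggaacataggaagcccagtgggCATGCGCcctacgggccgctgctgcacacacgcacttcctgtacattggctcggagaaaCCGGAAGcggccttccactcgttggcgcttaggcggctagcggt
Ndufb6: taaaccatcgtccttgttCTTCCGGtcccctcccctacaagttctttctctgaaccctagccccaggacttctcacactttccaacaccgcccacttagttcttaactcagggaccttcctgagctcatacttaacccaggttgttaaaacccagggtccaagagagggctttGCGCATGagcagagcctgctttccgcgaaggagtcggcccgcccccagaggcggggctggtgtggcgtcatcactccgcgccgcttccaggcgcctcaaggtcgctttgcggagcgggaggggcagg
Uqcr11: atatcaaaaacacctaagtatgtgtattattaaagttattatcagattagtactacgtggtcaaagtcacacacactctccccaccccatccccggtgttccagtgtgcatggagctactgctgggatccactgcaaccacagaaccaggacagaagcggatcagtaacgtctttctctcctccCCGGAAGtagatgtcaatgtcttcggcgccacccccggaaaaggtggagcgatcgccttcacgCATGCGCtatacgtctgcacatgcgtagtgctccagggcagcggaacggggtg

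A RefSeq promoter was at hand for 50 of the 75 members. The NRF1 core was in 11 of them (22%), among them Cycs, Cox5b and Ndufa8, against 4.41% of all 27025 genes with a promoter. The ETS motif was also in 11 (22%), against 9.93% of genes. The core of the YY1 motif (GATGGCG) was in 8 (16%), against 4.04% of genes. The core of the hypoxia response element (ACGTG) was in 10 (20%), against 21.8% of genes, and the CCAAT box (CCAAT) in 19 (38%), against 41.1%. A match is a string of letters only, binding was not measured, and base composition of the windows was not compared.

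The next sequences are shown because Ndufs3 and mt-Co2 were listed at 0 counts and each has a near-identical copy elsewhere in the genome. Whether the copies bear on those counts was not tested. Ndufs3, a core subunit of complex I, lies at chr2:90894634-90904827 on the minus strand, and its processed pseudogene Gm12251 at chr11:58392769-58393560, also on the minus strand (GRCm38, GENCODE M21). The first 120 bases of Gm12251 are set against Ndufs3 from base 181 of its transcript, with capitals at the 4 positions that differ. Over the 792 bases compared, 11 differed, which is 98.61% identity.
Ndufs3: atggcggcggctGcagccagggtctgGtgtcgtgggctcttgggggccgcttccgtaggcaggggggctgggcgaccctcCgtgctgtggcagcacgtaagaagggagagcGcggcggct
Gm12251: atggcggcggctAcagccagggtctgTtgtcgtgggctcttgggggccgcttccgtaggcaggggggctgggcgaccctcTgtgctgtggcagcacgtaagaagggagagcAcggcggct
For mt-Co2, which encodes the copper-binding second subunit of complex IV and lies at chrM:7013-7696 on the plus strand, the first 90 bases are shown with those of Gm28661, a copy in the nuclear genome at chr1:24614885-24615565 on the minus strand. The 681 bases compared held 0 differences, so no letter is in capitals.
mt-Co2: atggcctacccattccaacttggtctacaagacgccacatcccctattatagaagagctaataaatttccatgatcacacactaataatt
Gm28661: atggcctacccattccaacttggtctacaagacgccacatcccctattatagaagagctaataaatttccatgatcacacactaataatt

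Gpr65 had 0.683, 0.9754 and 1.10 CPM in KO macrophages, against 93.4, 112, 92.6 and 65.2 CPM in WT macrophages, and its fitted log2 fold change of -6.62 (SE 0.30, edgeR adjusted p = 7.99e-05) matched the genotype labels. CPM are counts scaled to a common library size after TMM normalization, and every fold change is KO over WT on the log2 scale. The libraries held 22449772 to 30483733 counts. The library of KO 1 stood apart on the first principal component (44.2% of the variance), at -68.5 against -2.3 to 28 for the others, and 940 of the 16234 genes tested had 0 counts in it, against 51 to 281 in the others. Macrophage markers were all detected, 12 of 12. They summed to 24580, 48357 and 30808 CPM in KO macrophages, against 30329, 30164, 25636 and 25712 CPM in WT macrophages. Of these markers 0 were called, and 10 had a positive and 2 a negative difference, with a median of 0.27. Without KO 2, 7 were positive and 5 negative, with a median of 0.06.

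Of the 75 members, 6 were listed at 0 in all 7 libraries, although every cell with a working respiratory chain uses them: Ndufs3 and Uqcrc1 of the nuclear genes, and mt-Co2, mt-Nd4l, mt-Atp6 and mt-Atp8 of the mitochondrial genes. A further one, mt-Co3, had 20 counts over all libraries. The 4 mitochondrial members that shared nearly all of their 50-base words with a nuclear copy and had at most those 20 counts were mt-Co2 (100% of words shared), mt-Co3 (99.86%), mt-Atp6 (99.53%) and mt-Nd4l (98.79%). The fifth such gene, mt-Nd3, shared 97.99% and had 504 counts. Exceptions ran both ways. The gene mt-Nd4 shared 62.23% and had 123539 counts, mt-Co1 shared 51.14% and had 631754 counts, while mt-Atp8 shared 0% and was listed at 0. Words were compared only with annotated transcripts of other genes, so a copy of mt-Atp8 without annotation would not be counted. In the mitochondrial genome mt-Atp8 lies between mt-Co2 and mt-Atp6, which both have annotated copies on chromosome 1. The copies of mitochondrial members held few counts themselves, at most 130 over all libraries. Uqcrc1, a core subunit of complex III, shared 0% of its words with any other annotated gene and was listed at 0 all the same. The sources used here do not say how reads with more than 1 place in the genome were counted, and the part of this step in these zeros was not tested.

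Ndufs3 had 0 counts in all libraries, but its copy Gm12251 had 2416, 2351 and 1819 counts in KO macrophages, against 1618, 2603, 1997 and 2250 in WT macrophages. Ndufs3 shared 17.86% of its 50-base words with other genes, while Cycs shared 26.15% and had counts. In all, 17 nuclear members had at least 1 copy that shared 10% or more of its own 50-base words with the member, 29 copies together. These shares ran from 10.4% for Ndufa11b to 100% for Gm12338, and identity was computed for Gm12251 alone of these copies. In 11 of the 17, the copies held more counts than the gene itself. Cox7c, a small complex IV subunit, had 4609 counts over all libraries and its copies 24409, of which 24384 lay in the pseudogene Gm12338. Cox5b, another complex IV subunit, had 6667 counts and its copy Gm11273 had 23504. Ndufs5 of complex I had 1682 counts and its copy BC002163 had 13782, and Cycs had 2367 counts and its 6 copies 15704. Reads of a member and of a copy may have been split between them, so the levels of these members are uncertain. With the copies added to their members, 71 members were tested and 0 were called. Ndufs3 with Gm12251 then measured 82.5, 95.5 and 66.8 CPM in KO macrophages, against 67.2, 100.4, 66.2 and 82.2 CPM in WT macrophages, a log2 difference of 0.05 (SE 0.20).

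**Figure D1:**
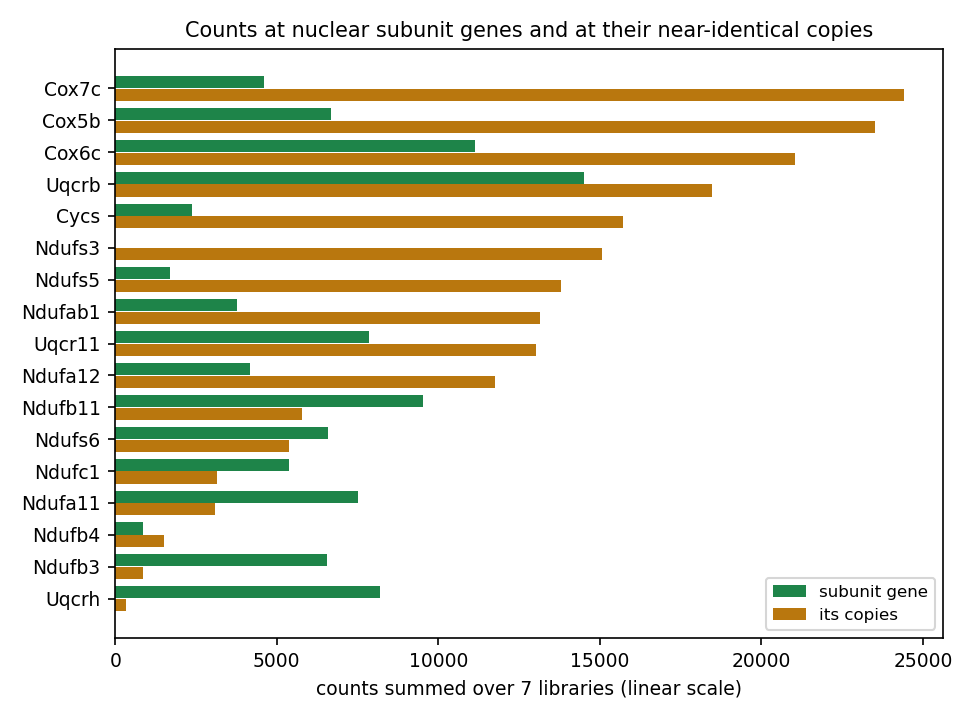
Counts summed over the 7 libraries (linear axis) at 17 nuclear subunit genes (green) and at their near-identical copies (orange). In 11 genes the copies held more counts than the gene, as for Cox7c with 4609 counts at the gene and 24409 at its copies, and Ndufs3 had 0 counts at the gene and 15054 at its copy.

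No respiratory chain subunit passed the test between KO and WT macrophages. At an adjusted p under 0.05 in the edgeR quasi-likelihood test, 0 of the 68 members tested were called, where 0.037% of all genes tested were (6 of 16234), and the smallest adjusted p of a member was 0.812. DESeq2 and limma voom also called 0 members. At an unadjusted p under 0.05, 0 members were higher and 1 was lower, while 5.37% of all genes tested had such a p, 2.57% higher and 2.79% lower. The fitted difference was positive for 22 members and negative for 46. In nuclear members, 17 were positive and 43 negative, with a median log2 fold change of -0.13, and in mitochondrial members 5 were positive and 3 negative, with a median of 0.11. Over all genes tested the median was -0.0017, with 49.7% positive. The signs of both medians turned when single libraries were left out: the nuclear median was 0.0068 without WT 2, and the mitochondrial median was -0.01 without KO 1, -0.14 without KO 3 and -0.05 without WT 1. The 95% interval of the difference lay within a 2-fold change either way for 56 of the 68 members, 52 of 60 nuclear and 4 of 8 mitochondrial, and for 52.1% of all genes tested. The intervals of the other 12 members reached past 2-fold, so a difference of that size lies within what these mice allow for them. In bulk RNA, fewer cells of a type and less RNA per cell cannot be told apart.

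**Figure D2:**
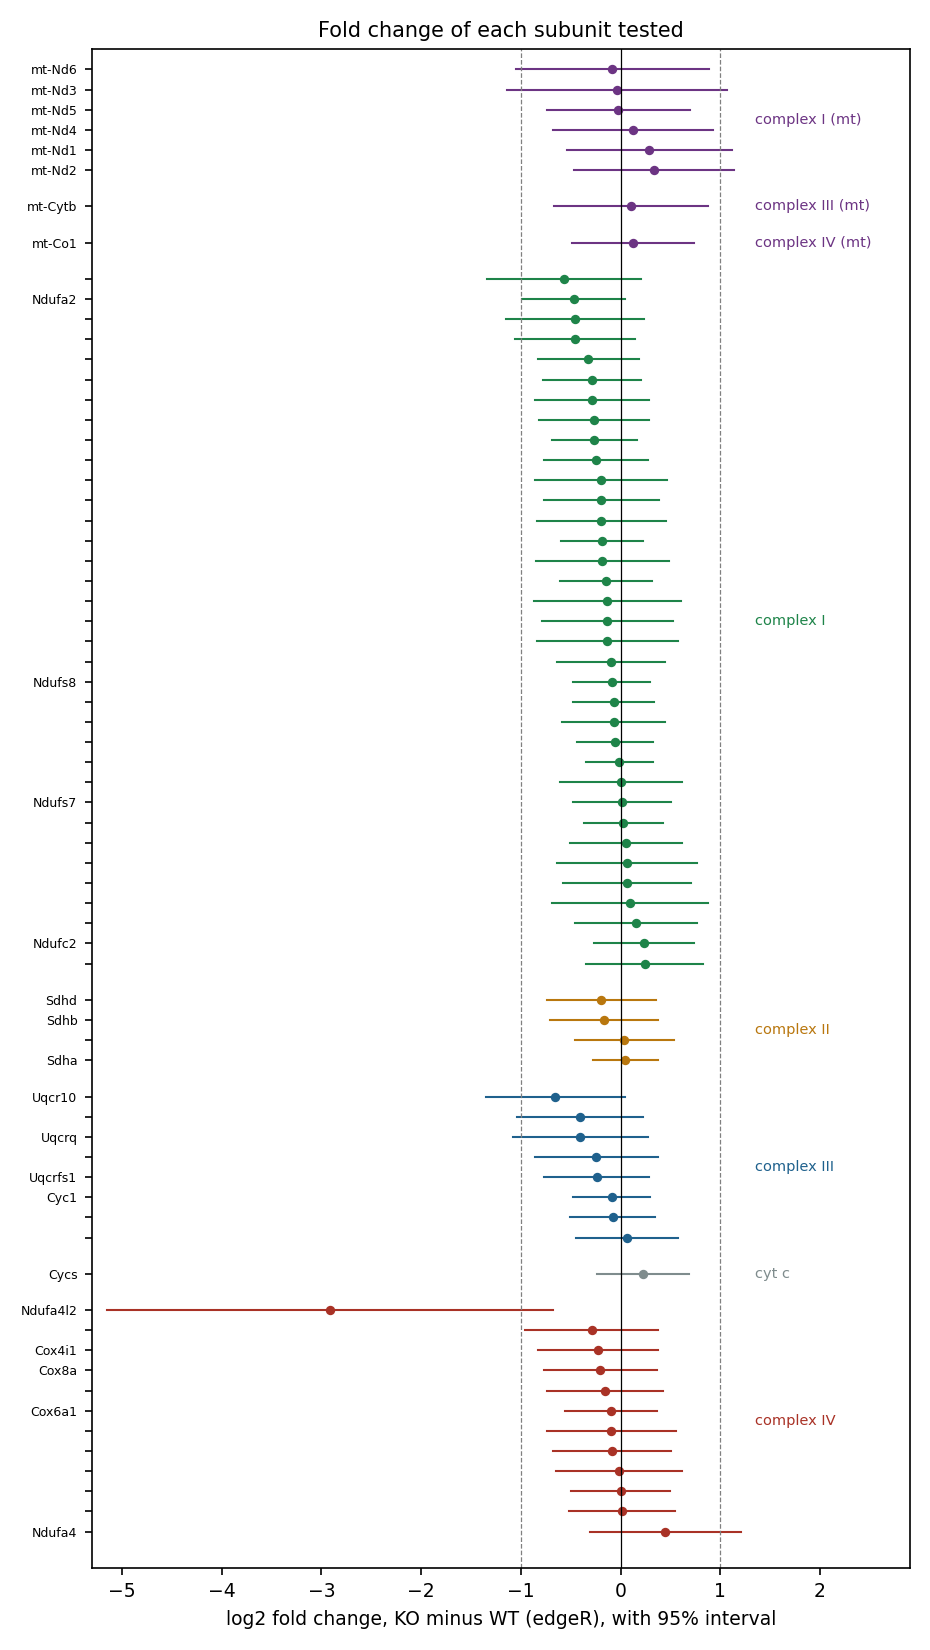
Log2 fold change of KO over WT for the 68 subunits tested, as points with 95% intervals from edgeR, grouped by complex and, within it, by the fold change, with the names of 25 members described in the text; dashed lines mark a 2-fold change. The interval of 56 subunits lies within those lines, and Ndufa4l2 sits apart at -2.91 with an interval that leaves out 0 before adjustment for the number of genes.

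The order of the libraries differed between the mitochondrially encoded and the nuclear subunits, and neither sum separated the genotypes. The 13 mitochondrial members summed to 10945, 5202 and 12735 CPM in KO macrophages, against 6578, 9318, 9232 and 10005 CPM in WT macrophages. Of the 13, 4 were listed at 0 and mt-Co3 had 20 counts, so this sum and the ratio below rest on the 8 tested genes. The KO mean of 9627 ± 3935 CPM (SD, n = 3) and the WT mean of 8783 ± 1510 CPM (SD, n = 4) differed by less than the spread between mice. Both the highest library, KO 3, and the lowest, KO 2, were knockout libraries, and the WT libraries lay between them. The 62 nuclear members summed to 5702, 5219 and 4348 CPM in KO macrophages, against 4656, 7269, 4372 and 6130 CPM in WT macrophages. Their means of 5090 ± 687 CPM (SD, n = 3) in KO and 5607 ± 1350 CPM (SD, n = 4) in WT macrophages also differed by less than that spread. The ratio of the mitochondrial to the nuclear sum, which compares counts and not levels per length, was 1.92, 0.997 and 2.93 in KO macrophages, against 1.41, 1.28, 2.11 and 1.63 in WT macrophages. KO 3 thus had the highest mitochondrial and the lowest nuclear sum of the 7 libraries.

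**Figure D3:**
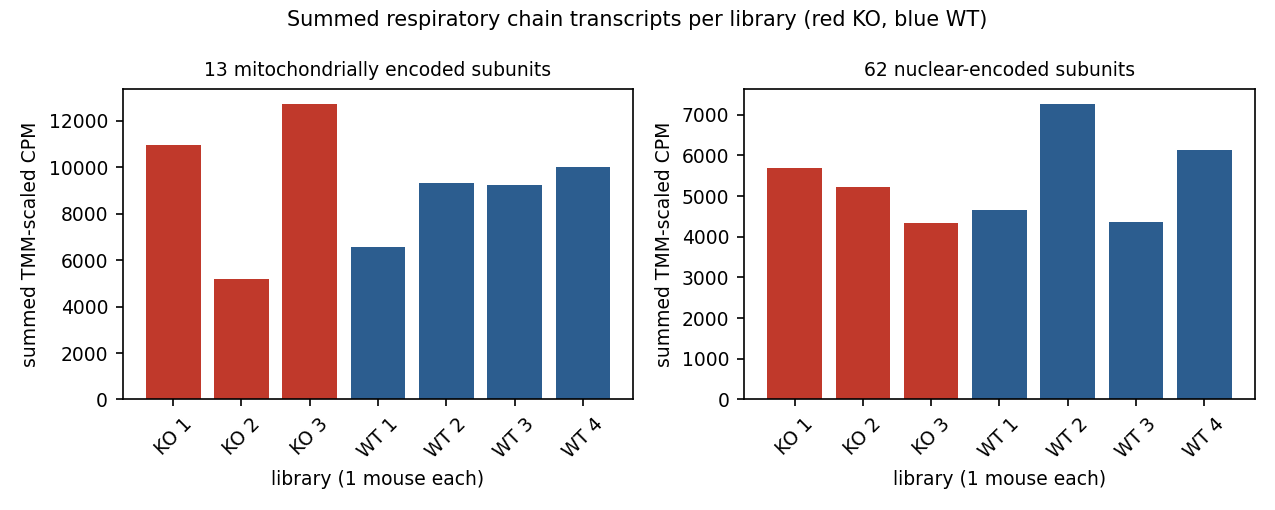
Summed TMM-scaled CPM of the 13 mitochondrially encoded subunits (left) and the 62 nuclear-encoded subunits (right) in each library, KO in red and WT in blue, 1 bar per mouse. The mitochondrial bars run between 5202 (KO 2) and 12735 (KO 3) and the nuclear bars between 4348 (KO 3) and 7269 (WT 2), so the libraries stand in different orders in the panels. Of the 13 mitochondrial genes, 4 were listed at 0 in every library and mt-Co3 had 20 counts in all.

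As a share of all counts, the mitochondrial members took 1.22%, 0.420% and 1.23% in KO macrophages, against 0.705%, 0.876%, 0.994% and 1.06% in WT macrophages. The difference of the group means was 0.0488 percentage points, and it was 0.318 without KO 2, -0.0832 without KO 1, -0.0880 without KO 3 and -0.0191 without WT 1, so single libraries turned its sign. The 2 mitochondrial ribosomal RNAs, mt-Rnr1 and mt-Rnr2, which are no members, took 0.835%, 0.413% and 0.949% in KO macrophages, against 0.466%, 0.877%, 0.564% and 0.868% in WT macrophages, and KO 2 was also the lowest library for them. The nuclear members took 0.636%, 0.421% and 0.420% of counts in KO macrophages, against 0.499%, 0.683%, 0.471% and 0.649% in WT macrophages. The 5 mitochondrial genes that share under 10% of their words with an annotated nuclear copy and had counts took 0.729%, 0.219% and 0.691% in KO macrophages, against 0.366%, 0.4875%, 0.5555% and 0.645% in WT macrophages. KO 2 was again the lowest library, and KO 1, not KO 3, was the highest by share.

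Among the mitochondrially encoded core subunits of complex I, mt-Nd1 and mt-Nd2 form part of the proton-pumping membrane arm. mt-Nd1 measured 1568, 652 and 1865 CPM in KO macrophages, against 712, 1348, 1048 and 1357 CPM in WT macrophages, a fitted difference of 0.29 (SE 0.37). mt-Nd2 measured 595, 269 and 709.8 CPM in KO macrophages, against 266, 524, 359 and 516 CPM in WT macrophages, a difference of 0.33 (SE 0.35). In both, the groups overlapped, KO 3 was the highest library, and KO 2 and WT 1 were the lowest. mt-Nd4 and mt-Nd5, like mt-Nd2, are related to sodium-proton antiporters. mt-Nd4 measured 832, 339.8 and 859.7 CPM in KO macrophages, against 390.4, 698, 584 and 813 CPM in WT macrophages, a difference of 0.12 (SE 0.35). mt-Nd5 measured 943, 430.4 and 1040 CPM in KO macrophages, against 575, 830.0, 886 and 975.4 CPM in WT macrophages, a difference of -0.02 (SE 0.32). KO 2 was lowest and KO 3 highest for both genes, and the groups overlapped.

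mt-Nd6, the protein gene of the opposite strand of the mitochondrial genome, measured 242, 94.1 and 241 CPM in KO macrophages, against 97.3, 273, 163 and 281 CPM in WT macrophages, a difference of -0.08 (SE 0.43). Here WT 4 and not KO 3 was the highest library. mt-Nd3, a small membrane arm subunit, measured 2.32, 2.23 and 3.34 CPM in KO macrophages, against 1.29, 4.24, 1.82 and 3.43 CPM in WT macrophages, a difference of -0.03 (SE 0.49). With the counts of its nuclear copy Gm28438 added, mt-Nd3 had a difference of 0.21 (SE 0.44), so that the sign depended on 130 counts of the copy.

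mt-Cytb, the cytochrome b of complex III, measured 3189, 1272 and 3292 CPM in KO macrophages, against 1769, 2212, 2704 and 2955 CPM in WT macrophages, a difference of 0.10 (SE 0.34). mt-Co1, the catalytic subunit of complex IV, measured 3574, 2143 and 4725 CPM in KO macrophages, against 2768, 3427, 3486 and 3104 CPM in WT macrophages, a difference of 0.12 (SE 0.27). Both genes were lowest in KO 2 and highest in KO 3, and the groups overlapped. Per kilobase of transcript, mt-Cytb and mt-Co1 had the highest listed levels of the members with counts, at 2172 and 2148 CPM per kb averaged over the 7 libraries, followed by mt-Nd1 at 1276. The levels per kilobase of mt-Nd2, mt-Nd4, mt-Nd5 and mt-Nd6 lay between 383 and 468, between the levels of the nuclear members Cox6a1 and Cox4i1. These levels divide by the whole transcript, although mt-Co1 shared 51.14% and mt-Nd4 62.23% of their words with nuclear copies. How reads from shared stretches were counted is not stated, so the levels and the order of these genes are uncertain.

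Each tested member was also expressed as its deviation in a library, the log2 CPM there minus the gene's mean over the 7 libraries. The median deviation of the 8 mitochondrial members was 0.42, -0.83 and 0.48 in KO libraries, against -0.67, 0.21, -0.10 and 0.32 in WT libraries. All 8 were below their own mean in KO 2 and in WT 1, and all 8 were above it in KO 3. The median deviation of the 60 nuclear members was 0.18, -0.07 and -0.27 in KO libraries, against -0.20, 0.49, -0.27 and 0.23 in WT libraries. In WT 2, 59 of the 60 were above their own mean and 44 had their highest value of the 7 libraries. In KO 3 and in WT 3, 4 of the 60 were above their mean and 20 had their lowest value. The nuclear members thus differed between libraries together, and the libraries in which they were high and low belonged to both genotypes.

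**Figure D4:**
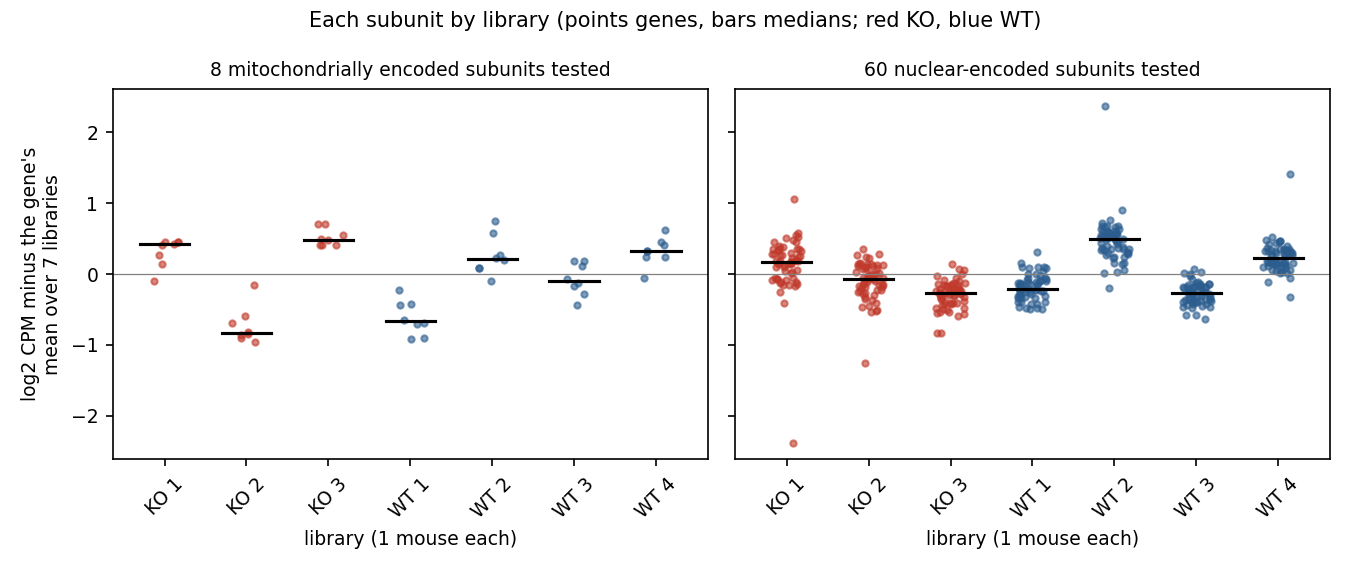
Deviation of each tested subunit from its own mean over the 7 libraries (log2 CPM), by library, for 8 mitochondrially encoded (left) and 60 nuclear-encoded subunits (right); points are genes, bars are medians, KO is red and WT blue. The mitochondrial medians are lowest in KO 2 (-0.83) and WT 1 (-0.67), and the nuclear median is highest in WT 2 (0.49).

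Of the nuclear subunits of complex I, 35 of 36 were tested, 10 with a positive and 25 with a negative difference, at a median of -0.13. Ndufs7 and Ndufs8 are core subunits that carry iron-sulphur clusters on the path to ubiquinone. Per kilobase of transcript the accessory subunit Ndufa2 had the highest level of the complex, 262 CPM per kb, with 176 for Ndufs7 and 152 for Ndufs8. Ndufs7 measured 196, 179.6 and 146 CPM in KO macrophages, against 140.5, 233, 140 and 176 CPM in WT macrophages, a difference of 0.01 (SE 0.22). Ndufs8 measured 146, 162 and 137 CPM in KO macrophages, against 142, 193, 136 and 158 CPM in WT macrophages, a difference of -0.09 (SE 0.17). WT 2 was the highest library for both and WT 3 the lowest. Ndufa2 had the smallest unadjusted p of complex I, with 137, 131 and 101 CPM in KO macrophages, against 139.6, 216, 128 and 198 CPM in WT macrophages and a difference of -0.47 (SE 0.23). Its groups overlapped, since KO 1 and KO 2 lay above WT 3, and 11.5% of its exon bases overlap Tmco6 on the other strand. Ndufc2, an accessory subunit of the membrane arm, had a fitted difference of the other sign, with 124, 103 and 112 CPM in KO macrophages, against 75.6, 122, 72.4 and 115 CPM in WT macrophages and a difference of 0.24 (SE 0.22).

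The remaining tested complex I genes ranged from Ndufb4 at -0.57 to Ndufa8 at 0.24, and none had an unadjusted p under 0.05. Core subunits of the matrix arm, which takes electrons from NADH, had a highest library 1.26 times the lowest for Ndufs1, 1.51 times for the NADH-oxidising Ndufv1 and 2.04 times for Ndufv2. The small accessory subunits Ndufa1, Ndufs6 and Ndufb4 had ratios of 2.28, 2.32 and 2.45. Over the 60 nuclear members tested, the median of this ratio was 2.08 for the 14 with transcripts of up to 600 bases, 2.02 for the 21 of up to 1000, 1.89 for the 10 of up to 1500, 1.51 for the 9 of up to 2500 and 1.46 for the 5 of up to 4000. Single members departed from this order: Cox7c, with 540 bases, had a ratio of 1.55, and Ndufb2, with an annotated transcript of 4371 bases, had 2.22.

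Complex II, which also serves the tricarboxylic acid cycle as succinate dehydrogenase, had 2 members with a positive and 2 with a negative difference, at a median of -0.06. Sdha, its flavin-containing catalytic subunit, measured 220.4, 248 and 242 CPM in KO macrophages, against 246, 237, 209.6 and 222 CPM in WT macrophages, a difference of 0.05 (SE 0.14). This was the steadiest of the 60 nuclear members tested, with its highest library at 1.18 times its lowest. Sdhb, whose promoter is printed above, measured 139, 234 and 155 CPM in KO macrophages, against 170.2, 259, 162 and 199 CPM in WT macrophages, a difference of -0.17 (SE 0.24). Sdhd, a membrane anchor, measured 179.8, 237 and 192 CPM in KO macrophages, against 195, 325, 168 and 239 CPM in WT macrophages, a difference of -0.19 (SE 0.24). Sdhb and Sdhd were highest in WT 2, and in each the groups overlapped. The ubiquinone-site anchor Sdhc had a difference of 0.04 (SE 0.22).

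Complex III had 1 member with a positive and 7 with a negative difference among the 8 tested, at a median of -0.24. Uqcr10, a small accessory subunit, measured 94.99, 87.6 and 55.7 CPM in KO macrophages, against 95.05, 185, 82.97 and 136 CPM in WT macrophages, a difference of -0.65 (SE 0.31) with an unadjusted p of 0.0628. KO 3 was the lowest library and WT 2 the highest, and KO 1 and KO 2 lay within the WT range, so the groups overlapped. Uqcrq, which sits beside cytochrome b, measured 230.4, 152 and 135 CPM in KO macrophages, against 167, 308, 157 and 279 CPM in WT macrophages, a difference of -0.40 (SE 0.30). The subunits that carry electrons had smaller fitted differences than Uqcr10: Cyc1, the cytochrome c1, measured 210.5, 197 and 165 CPM in KO macrophages, against 167, 231, 197 and 217 CPM in WT macrophages, a difference of -0.09 (SE 0.17). Uqcrfs1, the Rieske iron-sulphur protein, measured 119, 88.1 and 87.0 CPM in KO macrophages, against 86.5, 153, 95.6 and 128 CPM in WT macrophages, a difference of -0.24 (SE 0.23). Uqcr11, Uqcrh, Uqcrc2 and Uqcrb had differences of -0.41, -0.24, -0.08 and 0.07. Cycs, the mobile electron carrier that also takes part in apoptosis, measured 13.4, 14.6 and 13.1 CPM in KO macrophages, against 11.8, 13.9, 11.2 and 10.01 CPM in WT macrophages, a difference of 0.23 (SE 0.20). With its 6 copies added, Cycs measured 126, 93.4 and 84.95 CPM in KO macrophages, against 77.2, 110.1, 77.6 and 99.8 CPM in WT macrophages, a difference of 0.15 (SE 0.20).

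Complex IV had 3 members with a positive and 9 with a negative difference, at a median of -0.09. Cox4i1, its regulatory subunit that binds ATP, had the highest level per kilobase of all nuclear members (556 CPM per kb), followed by Cox8a (465) and Cox6a1 (343). Cox4i1 measured 462, 395 and 308 CPM in KO macrophages, against 356, 624, 324 and 509.5 CPM in WT macrophages, a difference of -0.22 (SE 0.27). Cox8a measured 229, 269 and 208 CPM in KO macrophages, against 204, 396, 214 and 269.7 CPM in WT macrophages, a difference of -0.20 (SE 0.25). In both genes WT 2 was highest and the groups overlapped, with 1 KO library, KO 3, below the WT range of Cox4i1 and 0 below that of Cox8a. Cox6a1, whose promoter is printed above, measured 213, 208 and 145 CPM in KO macrophages, against 183, 228, 162 and 233 CPM in WT macrophages, a difference of -0.09 (SE 0.20). The other structural subunits Cox5a, Cox5b, Cox6b1, Cox6c, Cox7a2, Cox7b and Cox7c ranged from -0.29 (Cox7b) to 0.01 (Cox7a2).

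The largest positive and the largest negative differences of all members were in a pair of related genes of complex IV. Ndufa4, named after complex I but known as a subunit of complex IV, measured 60.04, 25.4 and 23.03 CPM in KO macrophages, against 30.7, 25.1, 20.8 and 29.2 CPM in WT macrophages, a difference of 0.45 (SE 0.33). KO 1 alone was high, and the difference was -0.14 without it. Ndufa4l2, known as an isoform of Ndufa4 that is induced in hypoxia, had 1, 4 and 9 counts in KO macrophages, against 15, 74, 15 and 39 in WT macrophages. This was 0.0341, 0.163 and 0.331 CPM in KO macrophages, against 0.623, 2.85, 0.497 and 1.42 CPM in WT macrophages, a difference of -2.91 (SE 0.99) with an unadjusted p of 0.0163 and an edgeR adjusted p of 0.812. Every KO library lay below every WT library, and Ndufa4l2 was the only one of the 68 members whose groups did not overlap, where 6.12% of all genes tested did not, 2.8% with KO above and 3.33% with KO below. The 14 counts over the KO libraries leave the size of the difference poorly known, and 2.9% of its exon bases overlap Shmt2 on the other strand. Per kilobase Ndufa4l2 was the lowest nuclear member with counts, at 0.906 CPM per kb, against 50.2 for Ndufa4.

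Up to 1000 bases, the median deviations of nuclear members and of other coding genes had the same sign in each library. Members of over 600 and up to 2500 bases had median deviations further from 0 in KO 3 and WT 2 than other genes of that length. Among 69 other protein-coding genes with transcripts of up to 600 bases, the median deviation was 0.30, -0.30 and -0.34 in KO libraries, against -0.22, 0.47, -0.30 and 0.32 in WT libraries. In the 14 nuclear members of that length it was 0.16, -0.09 and -0.41 in KO libraries, against -0.22, 0.59, -0.25 and 0.24 in WT libraries. Both sets were highest in WT 2 and below 0 in KO 2, KO 3, WT 1 and WT 3. The 21 members of over 600 and up to 1000 bases lay further from 0 than 379 other genes in every library. Their median deviation was 0.49 in WT 2 and -0.371 in WT 3, against 0.336 in WT 2 and -0.233 in WT 3 for those genes. In the 9 members of over 1500 and up to 2500 bases the median deviation was -0.253 in KO 3 and 0.359 in WT 2, against -0.0444 in KO 3 and 0.0699 in WT 2 for other genes of that length. In the 10 members of over 1000 and up to 1500 bases it was 0.521 in WT 2, against 0.223 for other genes, and Ndufb2, the 1 member over 4000 bases, was at 0.60 in WT 2. In other genes longer than 4000 bases the median deviations had the other sign in each library, at -0.11, 0.04 and 0.09 in KO libraries, against 0.15, -0.15, 0.14 and -0.09 in WT libraries. The contrast between other genes of up to 1000 and of over 4000 bases was 0.33, -0.12 and -0.35 in KO libraries, against -0.33, 0.51, -0.38 and 0.29 in WT libraries. Its group means of -0.05 in KO and 0.02 in WT libraries differed by less than the spread between mice (exact two-sided permutation p = 0.886 over 35 splits). With this length trend taken out of each library, 0 members were called, the nuclear median difference was -0.09 and the mitochondrial one 0.14.

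**Figure D5:**
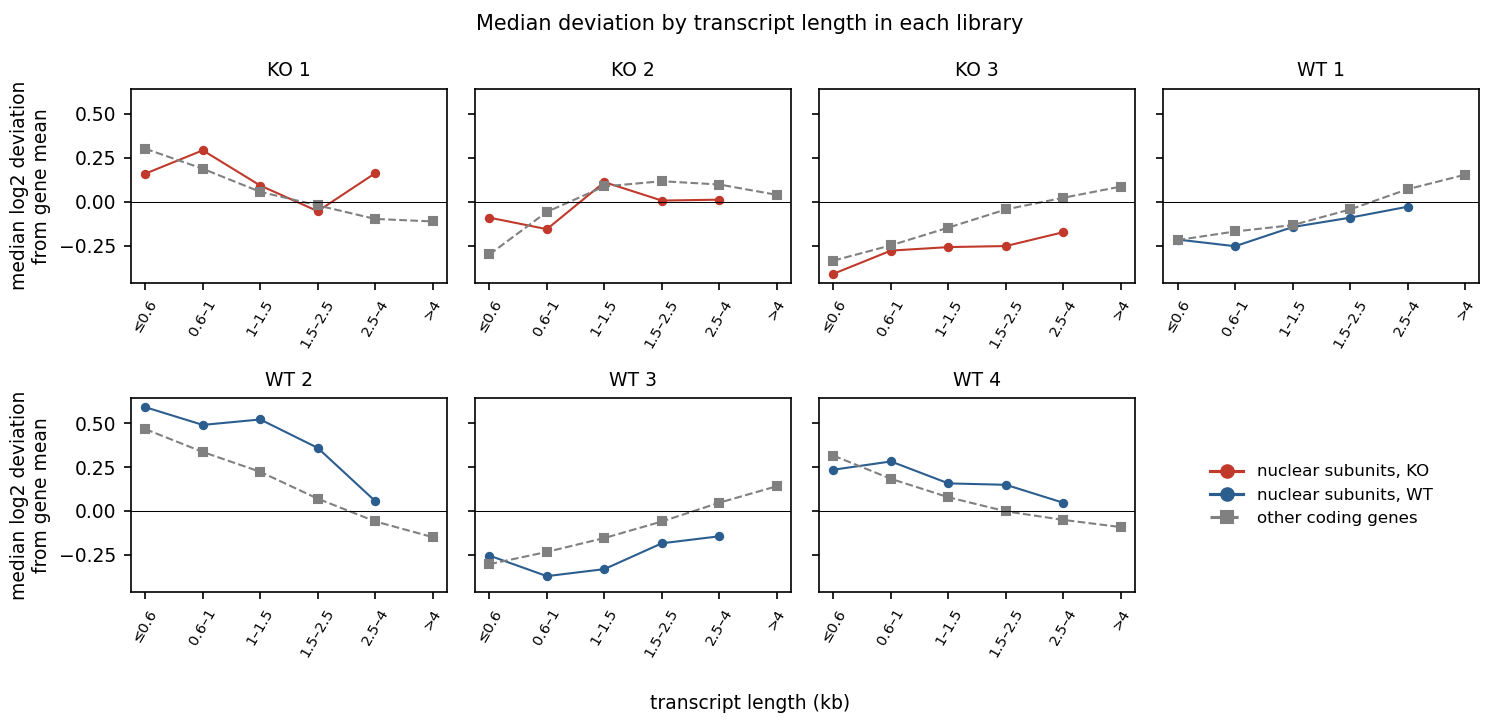
Median deviation (log2 CPM minus the gene's mean) by class of transcript length in kb, 1 panel per library, for nuclear subunits (red KO, blue WT) and other protein-coding genes (grey, dashed). Short genes of both kinds are high in WT 2 (0.59 for subunits and 0.47 for other genes in the shortest class) and low in KO 3 (-0.41 and -0.34).

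Markers of other cells also differed between these libraries, and their part in the subunit levels was not tested. The 7 epithelial and tumour markers summed to 168, 41.9 and 77.9 CPM in KO macrophages, against 126, 379.6, 135.9 and 450.2 CPM in WT macrophages. WT 2 and WT 4 were the highest libraries both for these markers and for the nuclear sum. Nearly all of that sum was Cdh1, with 166, 37.5 and 75.9 CPM in KO macrophages, against 122, 375, 131 and 437 CPM in WT macrophages, while Krt8, Krt19, Cldn7 and Krt20 stayed under 3 CPM in every library, and Krt20 was at 0 in all but KO 2. Epcam measured 1.6, 3.74 and 1.95 CPM in KO macrophages, against 2.41, 3.97, 4.58 and 5.29 CPM in WT macrophages. Krt18 measured 0, 0.325 and 0 CPM in KO macrophages, against 0.914, 0.54, 0.729 and 4.42 CPM in WT macrophages, with every KO library below every WT library. Cdh1, Krt18 and Epcam, the 3 markers tested, had negative differences, and 2 of them an unadjusted p under 0.05. Over all genes tested, 5.37% had such a p and 6.12% had groups without overlap. The 11 T and NK cell markers summed to 29.4, 97.6 and 872 CPM in KO macrophages, against 47.4, 117, 185 and 223 CPM in WT macrophages, so KO 3, the library with the highest mitochondrial sum, also had the highest sum of these markers. The 10 neutrophil markers summed to 129, 190.2 and 142 CPM in KO macrophages, against 191, 239, 143 and 175 CPM in WT macrophages, and Ly6g, which defines that cell type in mice, was at 0 in all libraries. Csf3r made up much of that sum, with 65.6, 181 and 133 CPM in KO macrophages, against 65.9, 100.4, 80.95 and 53.2 CPM in WT macrophages. Mmp9 measured 40.9, 7.15 and 6.13 CPM in KO macrophages, against 108, 24.6, 53.3 and 78.1 CPM in WT macrophages. It was higher than Csf3r in WT 1 and WT 4. The fitted differences were 0.75 for Csf3r and -1.87 for Mmp9. Of the 7 neutrophil markers tested, 1 had a positive and 6 a negative difference, with a median of -1.87, and 3 had an unadjusted p under 0.05, among them Retnlg with 0, 0.122 and 0.551 CPM in KO macrophages, against 0.873, 48.5, 2.82 and 10.6 CPM in WT macrophages, where every KO library lay below every WT library. The 8 fibroblast and endothelial markers summed to 324, 169.6 and 95.2 CPM in KO macrophages, against 152, 295, 255 and 385 CPM in WT macrophages. Col3a1 made up 240 CPM of that sum in KO 1. Of these markers, all tested, 1 had a positive and 7 a negative difference, with a median of -0.77. Pdgfrb alone had an unadjusted p under 0.05. It measured 0.546, 0.447 and 0.147 CPM in KO macrophages, against 3.91, 1.31, 2.75 and 7.05 CPM in WT macrophages, with every KO library below every WT library. The 6 dendritic cell markers summed to 78.4, 47.9 and 70.6 CPM in KO macrophages, against 32.5, 217, 79.9 and 66.8 CPM in WT macrophages. The sum was highest in WT 2, as that of the nuclear subunits was, but Ccr7 alone made up 169 CPM of it there. Of these markers, all tested, 2 had a positive and 4 a negative difference. Xcr1 measured 10.7, 18.9 and 20.4 CPM in KO macrophages, against 5.65, 4.32, 8.85 and 6.1 CPM in WT macrophages, lowest in WT 2. Every KO library lay above every WT library for Xcr1, and narrowly for Clec9a (3.345 CPM in KO 1, 3.315 CPM in WT 2).

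The nuclear genes of ATP synthase, which the symbols chosen did not include, gave no called gene either. Of 20 symbols listed, 18 were in the table and 17 were tested, 0 were called, 6 had a positive and 11 a negative difference, and the median was -0.12. Atp5b, the catalytic beta subunit, averaged 1084 ± 117 CPM in KO and 1177 ± 88.98 CPM in WT macrophages (SD, n = 3 and 4), a difference of -0.12 (SE 0.17). Atp5g3, a gene for the rotating c ring, averaged 243 ± 65.6 CPM in KO and 270.1 ± 66.5 CPM in WT macrophages, a difference of -0.15 (SE 0.25). Atp5a1 was listed at 0 in all libraries. The sum of these genes was 2727, 2301 and 2041 CPM in KO macrophages, against 2289, 2980, 2129 and 2785 CPM in WT macrophages, with the same highest and lowest library as the nuclear chain members.

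Assembly factors, which help build the complexes without being part of them, were likewise not called. Of 15 factors of complex I, all were tested, 0 were called, 13 had a positive and 2 a negative difference, and the median was 0.15, against -0.0017 for all genes tested. These signs rested on KO 1, the library that stood apart: without it 7 were positive and 8 negative, with a median of -0.02. Ndufaf2, for example, measured 19.1, 8.82 and 6.57 CPM in KO macrophages, against 7.32, 10.9, 6.96 and 12.1 CPM in WT macrophages, high in KO 1 alone. Foxred1, a factor of complex I assembly, averaged 60.3 ± 9.15 CPM in KO and 51.9 ± 4.04 CPM in WT macrophages (SD, n = 3 and 4), a difference of 0.22 (SE 0.16), and Tmem70 averaged 35.4 ± 4.95 CPM in KO and 32.95 ± 1.69 CPM in WT macrophages, a difference of 0.11 (SE 0.16). Of 29 factors of complexes II, III and IV, 26 were tested, 0 were called, and 11 were positive and 15 negative, with a median of -0.02. Without WT 2 that median was 0.05, as was that of the nuclear ATP synthase genes. Coa5 and Cox14 are factors of complex IV assembly. Coa5 averaged 114 ± 31.01 CPM in KO and 112 ± 11.4 CPM in WT macrophages, and Cox14 averaged 72.2 ± 7.95 CPM in KO and 94.4 ± 38.3 CPM in WT macrophages. Sco2, Cox20 and Pet117 were listed at 0.

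Isoforms and partners that replace or join the members in particular tissues gave no called gene. Of 11 such genes 7 were tested, and 2 were positive and 5 negative. Higd2a averaged 78.3 ± 5.84 CPM in KO and 78.2 ± 23.1 CPM in WT macrophages, and Cox7a2l averaged 66.2 ± 13.2 CPM in KO and 70.7 ± 24.6 CPM in WT macrophages. The muscle isoform Cox6a2 averaged 4.2 ± 2.45 CPM in KO and 5.94 ± 1.29 CPM in WT macrophages. Cox8c and AA467197 were listed at 0. Cox4i2, the isoform of Cox4i1 known to rise in hypoxia, measured 1.57, 3.17 and 3.71 CPM in KO macrophages, against 1.54, 0.809, 1.56 and 2.7 CPM in WT macrophages, a difference of 0.77 (SE 0.52), with overlapping groups.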

How the data were processed

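The authors deposited raw read counts per gene, whole numbers without normalization, for 7 libraries, each from a separate mouse per the labels. Per the submitters' processing notes the build was GRCm38 and the software named is BWA 0.7.12, DESeq2 1.24.0, cutadapt 1.15 and FastQC 0.11.5, in no stated role. Per the labels' protocols, libraries of polyA RNA were prepared by SMART-seq after RNeasy extraction. The sources used here name neither the program that assigned reads to genes nor its strand setting, so overlapping genes on opposite strands could not be told apart. Of all counts, 0.000338% lay in rows that name no symbol.

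Members were matched by identifier to GENCODE M21 (53274 of 53379 identifiers matched), which gave positions, transcript lengths and shared 50-base words. Transcript length was that of a gene's best-ranked annotated principal transcript, the longest where several ranked equally. Which transcript these cells expressed was not measured. The fit used edgeR 4.0.16 under R 4.3.3 with TMM scaling, filterByExpr by group (minimum count 10), the robust quasi-likelihood F test on genotype and Benjamini-Hochberg adjustment over all 16234 genes tested. Log2 CPM used a prior count of 2. Deviations by length used other coding genes with an average log2 CPM above 3, but all 60 nuclear members tested, whatever their level. Biological variation between mice (common coefficient, edgeR) came to 42.9%. The fit was checked on simulated data.

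The members and all gene lists were chosen with earlier results of these data known, so lists are described by counts and medians. Named members were the mitochondrial genes, up to 3 nuclear genes of highest CPM in each complex, the 3 smallest unadjusted p in each direction, members without overlap between groups, and Ndufa4l2; other lists give called genes or else the 2 of highest CPM, and other genes were named after their values were seen. Alternatives were other scalings and filters, DESeq2 1.42.0, limma 3.58.1 voom, no robust estimation, mouse number as a block, an adjusted p of 0.1 and each library left out; the length trend, the added copies, the other lists with each library left out and the sum over unshared mitochondrial genes were chosen after seeing the data.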

Additional observations from a re-analysis of the deposited data

How the results depend on the processing

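The number of members called was 0 under every alternative run, including an adjusted p of 0.1, and the lowest adjusted p of a member under any of them was 0.14. The number of all genes called was 6, and it was 11 without the low-count filter, 129 with DESeq2, 1 with the mouse number as a replicate block, and 3 to 14 with 1 library left out, 3 without KO 2 and 14 without KO 1. Mouse numbers were not stated to pair mice. After each gene's group mean was taken out of its log2 CPM, what remained correlated at 0.0509 to 0.0882 only between libraries of the same number. Under the replicate block the nuclear median was -0.06 and the mitochondrial median 0.18. Scaling by library size alone moved the median of all genes by -0.11, and the nuclear median was then -0.20. With 1 library left out, the nuclear median ran from -0.27 to 0.0068 and the mitochondrial median from -0.14 to 0.40.

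Of 449 alternative values for the 25 named members, 0 passed the threshold and 45 had the other sign, and 9 members kept their sign throughout. With limma voom the sign turned for mt-Nd3 (0.495), mt-Nd6 (0.0877), mt-Cytb (-0.0478), Ndufs8 (0.0106), Sdhb (0.0215), Sdhd (0.059) and Cox8a (0.00567). With the replicate block it turned for mt-Nd3 (0.275), mt-Nd5 (0.00541) and mt-Nd6 (0.149). With library size alone it turned for Ndufs7 (-0.0697) and Sdha (-0.0644), and without the low-count filter for Ndufs7 (-0.00575). With the length trend removed it turned for mt-Nd3 (0.208) and mt-Nd6 (0.0612), and with copies added for mt-Nd3 (0.213). With 1 library left out, differences ran from -0.00953 to 0.618 for mt-Nd1, -0.288 to 0.271 for mt-Nd3, -0.0859 to 0.443 for mt-Nd4, -0.251 to 0.277 for mt-Nd5, -0.332 to 0.243 for mt-Nd6, -0.113 to 0.425 for mt-Cytb, -0.162 to 0.374 for mt-Co1, -0.0992 to 0.195 for Ndufs7, -0.169 to 0.0284 for Ndufs8, -0.00268 to 0.0841 for Sdha, -0.34 to 0.0158 for Sdhd, -0.194 to 0.00732 for Cyc1, -0.209 to 0.0657 for Cox6a1, -0.344 to 0.0404 for Cox8a and -0.142 to 0.69 for Ndufa4. These members had fitted differences smaller than their standard errors, except Ndufa4, whose sign rested on KO 1. The cause of these changes was not tested.

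With 3 and 4 mice and a coefficient of variation of 42.9%, the 95% intervals of 12 of the 68 members reached past 2-fold.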

Other observations

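Other mitochondrial gene groups were compared in the same fit, and 0 of their members were called by edgeR. Of 17 tricarboxylic acid cycle genes tested, 4 had a positive and 13 a negative difference, with a median of -0.04. Mdh2, the mitochondrial malate dehydrogenase, averaged 221 ± 38.7 CPM in KO and 270.1 ± 46.2 CPM in WT macrophages (SD, n = 3 and 4), and Ogdh averaged 177 ± 21.1 CPM in KO and 182 ± 25.3 CPM in WT macrophages. Of 23 genes of mitochondrial transcription and RNA handling, 10 were positive and 13 negative (median -0.04), and Grsf1, an RNA-binding protein of mitochondrial granules, averaged 61.8 ± 17.5 CPM in KO and 57.8 ± 7.01 CPM in WT macrophages. Hsd17b10, a subunit of mitochondrial RNase P, measured 61.9, 42.3 and 35.4 CPM in KO macrophages, against 51.3, 55.97, 37.2 and 63.3 CPM in WT macrophages. Of 11 regulators of biogenesis, 7 were positive and 4 negative (median 0.08), and Nrf1, which binds the promoter motif counted above, averaged 46.01 ± 3.91 CPM in KO and 43.5 ± 7.93 CPM in WT macrophages, while Pprc1 averaged 43.99 ± 12.5 CPM in KO and 57.5 ± 16.97 CPM in WT macrophages. Of 10 genes of mitochondrial dynamics and mitophagy, 3 were positive and 7 negative (median -0.08), with Sqstm1 at 578 ± 241 CPM in KO and 459 ± 51.1 CPM in WT macrophages, and Fis1, a fission protein of the outer membrane, at 105 ± 22.9 CPM in KO and 106 ± 29.4 CPM in WT macrophages. Of 17 genes of import and inner membrane structure, 9 were positive and 8 negative (median 0.01). Slc25a5, an ADP/ATP carrier, averaged 579 ± 27.6 CPM in KO and 511 ± 81.4 CPM in WT macrophages, and the phosphate carrier Slc25a3 averaged 352 ± 53.5 CPM in KO and 349.6 ± 68.1 CPM in WT macrophages.

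Of the 77 genes tested in these 5 lists, 3 (3.9%) had an unadjusted p under 0.05, against 5.37% of all genes tested, and none passed the adjusted threshold. The groups did not overlap for 4 of the 77 (5.19%), against 6.12% of all genes tested: Hspa9, Bnip3, Immt and Tfb1m, each with KO below WT. The genes described next were named after their values were seen. Hspa9, the heat shock protein that pulls precursors into the matrix, measured 160.4, 167 and 145 CPM in KO macrophages, against 206, 202, 223 and 215 CPM in WT macrophages, a difference of -0.43 (SE 0.14) with an edgeR adjusted p of 0.796. All 3 KO libraries lay below all 4 WT libraries. Bnip3, a mitophagy receptor of the outer membrane, measured 39.8, 34.8 and 39.5 CPM in KO macrophages, against 56.2, 47.95, 44.8 and 51.6 CPM in WT macrophages, a difference of -0.40 (SE 0.15), again without overlap and with an edgeR adjusted p of 0.918. Fh1, the fumarase of the cycle, measured 38.6, 59.7 and 41.8 CPM in KO macrophages, against 64.4, 85.8, 55.7 and 59.2 CPM in WT macrophages, a difference of -0.50 (SE 0.22) with an edgeR adjusted p of 0.923, and its groups overlapped.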
